A study of Mus musculus with 34 samples.

Results

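The regions described here are the 68 that carried more H3K27ac in the B6-13D2 line than in each of 3 other mouse embryonic stem cell lines, by the rule below. They were chosen from 229016 regions off chromosomes 13, X and Y, of 248336 regions in the table. The choice used CPM, the count of a region divided by the total of its library and multiplied by 1e+06, and averaged this over the 3 H3K27ac libraries of each line. A member had a B6-13D2 mean of at least 1.5 CPM, and this mean was at least 2.5 times that of every other line after 0.1 was added to the latter; the other lines are B6, D2 and D2-13B6. The H3K27ac values of these 12 libraries therefore chose the members, and they are given below as a description with no test. Under the same rule with another line in its place, 461 regions were found for B6, 15 for D2 and 1415 for D2-13B6. These counts rest on library totals. With edgeR's TMM factors in place of the totals, the rule found 117 regions for B6-13D2, 65 of them members, and, in a comparison added after seeing the data, 243 for B6, 14 for D2 and 1576 for D2-13B6. The rule was met by 6 further regions on chromosome 13 and 4 on chromosomes X and Y, which it leaves out.

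The study profiled H3K27ac and H3K9me3 by chromatin immunoprecipitation and sequencing (ChIP-seq) in 34 libraries of mouse embryonic stem cells. B6 is the inbred strain C57BL/6J and D2 is DBA/2J. B6-13D2 cells have a stretch of chromosome 13 of D2 origin in an otherwise B6 genome, and D2-13B6 cells have the reverse, with the series text and the sample labels naming different end markers for the D2-13B6 stretch. One set of libraries, called repeats here, came from 1 line per genotype, with 3 H3K27ac libraries each and with 2 (B6-13D2, D2) or 3 (B6, D2-13B6) H3K9me3 libraries. A second set came from 3 separate B6 lines and 3 separate D2 lines per mark, and it includes the B6 line and the D2 line of the repeats. All cells were cultured in high-glucose DMEM with serum, LIF, the MEK inhibitor PD0325901 and the GSK3 inhibitor CHIR99021. The H3K27ac antibody was from Cell Signaling Technology in the repeats and from abcam in the separate lines, and the H3K9me3 antibody was from Active Motif throughout. Since each genotype of the repeats is 1 line and its libraries are technical replicates, a difference between them is one between lines, and the segment and other differences of a line cannot be told apart.

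Acetylation of lysine 27 of histone H3 marks promoters and enhancers in use, and it is laid down by the acetyltransferases p300 and CBP. Enhancers are mostly found in introns and between genes, and their acetylation differs more between cell states than that of promoters. Trimethylation of lysine 9 of histone H3 marks heterochromatin. In embryonic stem cells it covers many transposable elements, where KRAB zinc finger proteins, several of which are encoded in clusters on chromosome 13, recruit the methyltransferase SETDB1 through TRIM28.

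Sequences of 4 members are shown, each as the 300 bases around the region's centre on the plus strand of GRCm38, because the results below turn on them. The first and second lie in the largest run of members, between Eps8 and Strap. The third lies in an intron of Snd1, where H3K9me3 was lower in B6-13D2 than in B6. The fourth lies 215 kb from the start of Ube2e1, where H3K9me3 in B6-13D2 was above the mean of the other lines but not above B6. Capitals mark matches to short motifs searched on both strands. The first holds AGATAAG, a motif of the GATA factors, and CCAAT, bound by NFY. The second holds AAGGTCA (ESRRB) at 2 places and AGATAAG. The others hold CTTTGAT (TCF/LEF), CCAAT at 3 places and CCACNAGG (CTCF core) in the third, and ATTTGCAT (octamer), GGAATGT (TEAD) at 2 places and TGANTCA (AP-1) in the fourth. In the second, an ESRRB match and the GATA match overlap, and in the third the TCF/LEF match overlaps a CCAAT match.
chr6:137704474-137704773: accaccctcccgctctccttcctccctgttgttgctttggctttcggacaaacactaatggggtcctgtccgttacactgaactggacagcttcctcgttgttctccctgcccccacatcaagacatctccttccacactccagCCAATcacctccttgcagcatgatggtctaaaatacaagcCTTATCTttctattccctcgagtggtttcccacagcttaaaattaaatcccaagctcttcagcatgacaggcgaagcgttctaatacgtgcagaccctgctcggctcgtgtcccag
chr6:137713019-137713318: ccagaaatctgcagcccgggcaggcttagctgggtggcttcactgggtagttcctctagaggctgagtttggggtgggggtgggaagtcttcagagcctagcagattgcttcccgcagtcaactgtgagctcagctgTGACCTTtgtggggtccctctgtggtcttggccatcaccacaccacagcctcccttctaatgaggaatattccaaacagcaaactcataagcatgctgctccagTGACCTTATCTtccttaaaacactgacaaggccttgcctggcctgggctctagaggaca
chr6:28930037-28930336: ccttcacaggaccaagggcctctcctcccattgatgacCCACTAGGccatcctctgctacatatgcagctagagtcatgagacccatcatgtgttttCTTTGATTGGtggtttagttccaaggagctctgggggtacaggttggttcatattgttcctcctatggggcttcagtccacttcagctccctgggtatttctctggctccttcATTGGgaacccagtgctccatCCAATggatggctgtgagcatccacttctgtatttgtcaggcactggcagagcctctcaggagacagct
chr14:18546556-18546855: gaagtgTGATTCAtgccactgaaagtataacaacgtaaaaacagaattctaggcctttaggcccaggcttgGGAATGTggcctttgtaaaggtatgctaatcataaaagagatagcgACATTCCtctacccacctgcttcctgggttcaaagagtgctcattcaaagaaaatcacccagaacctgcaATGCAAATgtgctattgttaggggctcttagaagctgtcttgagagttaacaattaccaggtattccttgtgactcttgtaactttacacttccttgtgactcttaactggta

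Across all members, these motifs were found in shares that lay both above and below those of all 229016 windows of the same length. TGTTTAC (FOX) was in 7 of 68 members (10.3%) and 4.60% of all windows, ACAATGG (SOX) in 8 (11.8%) and 6.09%, and AAGGTCA in 8 (11.8%) and 8.01%. TGANTCA was in 12 members (17.6%) and 13.7% of windows, and CCAAT, which is short and frequent, in 24 (35.3%) and 33.7%. TAATCC (OTX) was in 3 members (4.41%) and 9.81% of windows, CAGCAGG (ZIC) in 6 (8.82%) and 13.9%, and GCCNNNGGC (TFAP2) in 3 (4.41%) and 10.8%. AGATAAG was in 4 members (5.88%) and 3.18% of windows, CTTTGAT in 5 (7.35%) and 5.23%, and CCACNAGG in 6 (8.82%) and 6.60%. GGAATGT was in 2 members (2.94%) and 6.63% of windows, CACGTG (E-box) in 2 (2.94%) and 5.29%, and GGGTGTGG (KLF) in 3 (4.41%) and 5.92%. ATTTGCAT was in 1 member (1.47%) and 3.22% of windows, CCGGAAG (ETS) in 1 (1.47%) and 3.03%, and AACCGGTT (GRHL) in 0 and 0.121%. A match is a run of letters and not a bound site. The members' GC content had a median of 45.7%, against 48.2% over all regions.

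The libraries of the repeats held 8735674 to 11543469 counts for H3K27ac and 1538145 to 2185977 for H3K9me3. In H3K27ac, 1 pair of libraries in every line (B6-13D2 replicates 1 and 3, B6 replicates 1 and 2, D2 replicates 1 and 3, D2-13B6 replicates 2 and 3) differed by less than the sampling noise (chi-square per degree of freedom 0.906, 0.977, 0.955 and 0.906). Each pair thus counts as 1 library, which leaves 2 distinct technical libraries of 1 cell line per genotype there. D2-13B6 replicate 1 stood apart from its group in both marks (2.81 and 2.82 for H3K27ac, 3.00 and 3.28 for H3K9me3), and without it the rule found 69 regions, 67 of them members. The summed H3K27ac at promoters of 10 stem cell genes was 1071 to 1231 CPM in every library. The summed value at promoters of 12 fibroblast genes, 2 of which (Col3a1 and Lum) had no region, was 33.9 to 39.1 CPM in B6-13D2, 18.9 to 24.8 in B6, 50.5 to 57.2 in D2 and 28.4 to 55.4 in D2-13B6. The part of such cells in the members was not tested. On the CPM scale the median over all regions was -0.22 (log2) for B6-13D2 minus B6, and with TMM factors it was -0.08.

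At the members, the B6-13D2 mean had a median of 8.83 CPM and ranged from 2.15 to 59.2. The medians of the other lines were 2.61 CPM in B6, 1.48 in D2 and 1.23 in D2-13B6. The lowest of the B6-13D2 libraries was above the highest of the other 9 libraries at all 68 members, against 4.25% of all regions, a share that the rule itself raises. The next highest line was B6 at 53 members, D2 at 11 and D2-13B6 at 4. B6-13D2 was a median of 2.86 times B6 plus 0.1, 4.65 times D2 and 5.64 times D2-13B6. The members were wider than most regions, with a median of 970 bp against 551 bp. The reads behind them were 21 to 692 per B6-13D2 library, with a median of 97, and 2 to 216 per B6 library, with a median of 22.

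Most members lay close to the fold limit. The ratio of B6-13D2 to the highest other line had a median of 2.73, and it was 3 or more at 25 members, 4 or more at 7 and 5 or more at 4. Just inside the limit were chr8:36146294-36149660 at 2.505, chr10:18501450-18502817 at 2.506 and chr6:142510657-142512287 at 2.509, and just outside were chr17:10772129-10772563 at 2.495, chr1:133345304-133348412 at 2.492 and chr17:93475608-93476851 at 2.489. The lowest B6-13D2 means among members were 2.15 CPM at chr2:98027550-98027917 and chr11:44368392-44368803 and 2.27 CPM at chr5:131827706-131828447. Below 1.5 CPM, 2 regions passed the fold limit, chr2:58594371-58594727 at 1.38 and chr1:116029561-116030192 at 1.37 CPM.

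**Figure D1:**
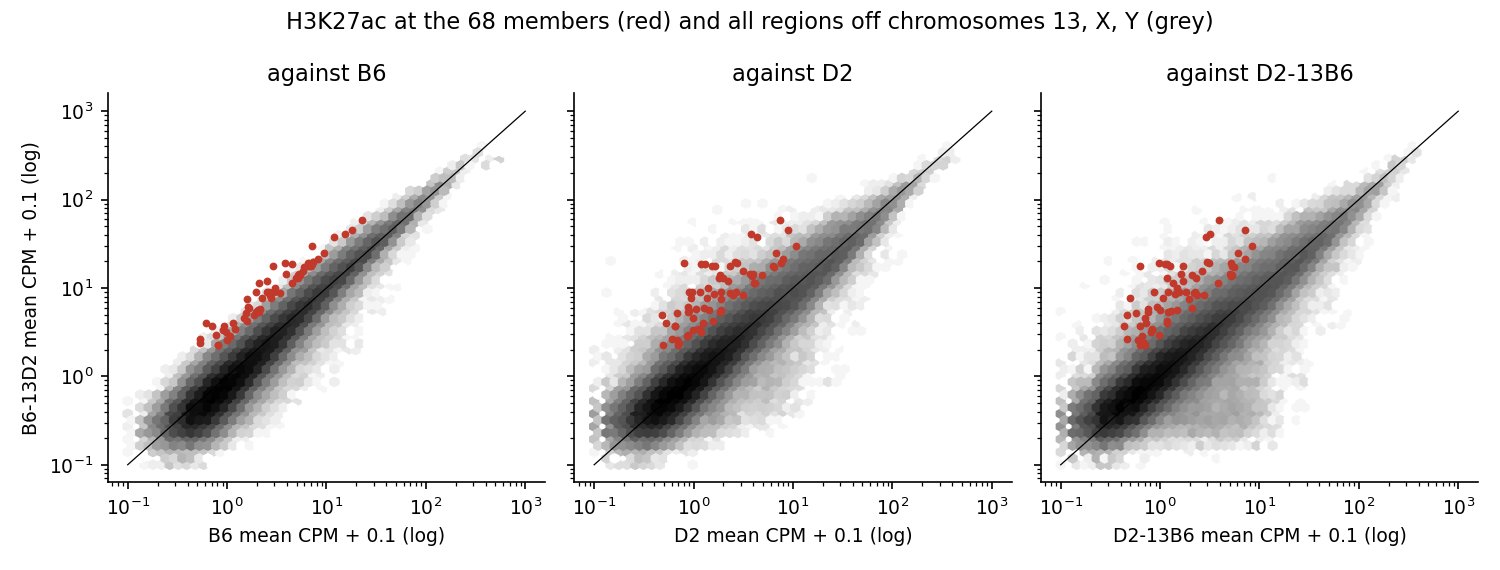
Mean H3K27ac CPM plus 0.1 of B6-13D2 (vertical, log) against B6, D2 and D2-13B6 (horizontal, log), with the 68 members in red, all 229016 regions as grey hexagons (darker where more regions lie) and the line of equal values. The members form a narrow band against B6 and spread more widely against D2 and D2-13B6.

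The largest run of members lay in the 80.2 kb between Eps8 (chr6:137477245-137654876, minus strand), which encodes a regulator of actin filaments, and Strap (chr6:137735078-137751932, plus strand), which encodes a receptor-associated protein of TGF-beta signalling. It held 9 members of 17 regions in chr6:137659648-137723094, which is 63.4 kb. Of these, 8 members and 1 other region filled the 20.05 kb from 137703048 to 137723094, which ends 11.98 kb before the start of Strap. No other run held more than 2 members.

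The member with the largest ratio of all 68, 6.01, was chr6:137704216-137705031 in this stretch. Its B6-13D2 libraries held 17.9, 16.6 and 17.7 CPM. Its B6 libraries held 2.60, 3.51 and 2.28 CPM, its D2 libraries 0.899, 2.17 and 1.51, and its D2-13B6 libraries 1.18, 1.35 and 0.978. The 3 B6-13D2 libraries were alike and far from the other 9, which overlapped between D2 and D2-13B6 but not between B6 and either of them.

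The highest level in the stretch was at chr6:137707131-137708374. B6-13D2 held 37.9, 37.3 and 39.2 CPM there, B6 10.6, 12.2 and 12.2, D2 4.80, 3.32 and 4.53, and D2-13B6 2.45, 3.11 and 2.84. At this member the order of the lines was B6-13D2, B6, D2 and D2-13B6, with no overlap between neighbours. At chr6:137705791-137706640, B6-13D2 held 18.8, 18.9 and 20.01 CPM, B6 3.73, 3.61 and 3.88, and the 6 libraries of D2 and D2-13B6 0 to 1.19.

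At chr6:137712761-137713577, the member with 2 AAGGTCA matches, the B6-13D2 libraries held 18.6, 17.6 and 18.97 CPM and the B6 libraries 4.07, 4.46 and 4.79. The 6 libraries of D2 and D2-13B6 held 0.686 to 1.49 CPM. B6 was thus again between B6-13D2 and the 2 lines of D2 background, without overlap.

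The other 4 members of the stretch had B6-13D2 means of 3.64 CPM (chr6:137703048-137703343), 6.04 (chr6:137716717-137717297), 4.53 (chr6:137717315-137717850) and 14.4 (chr6:137722009-137723094), with B6 means of 0.822, 1.52, 1.37 and 5.13. Summed over the 9 regions of the stretch, H3K27ac was 153, 143 and 158 CPM in B6-13D2, 44.2, 45.5 and 47.1 in B6, 16.8, 15.6 and 18.3 in D2, and 12.3, 16.8 and 17.8 in D2-13B6. The 1 region of the stretch that is no member, chr6:137708652-137709856, had means of 29.6 CPM in B6-13D2 and 14.1 in B6, a ratio of 2.08.

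The ninth member, chr6:137659648-137662105, lay 40.9 kb away at the Eps8 end. It had 29.3, 28.2 and 30.8 CPM in B6-13D2 and 5.65, 8.71 and 6.73 in B6, and here D2, at 9.59, 9.73 and 12.6 CPM, was above B6. The strongest region of the interval, chr6:137667091-137672131, had means of 165 CPM in B6-13D2, 118 in B6, 143 in D2 and 137 in D2-13B6, and it is no member. The promoter regions differed less. At Strap the means were 19.2, 20.7, 27.3 and 25.8 CPM, in the same order of lines. In Eps8 they were 11.98, 6.82, 11.03 and 8.77 CPM, at chr6:137647707-137650216. That region lies inside the gene and not at its outer start, 137654876, which no region covered. On the other side of the outer start, chr6:137658447-137659219 had means of 4.48, 1.36, 1.76 and 1.12 CPM and a ratio of 2.41. The large ratios thus lay between the genes and not at the start of Strap.

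**Figure D2:**
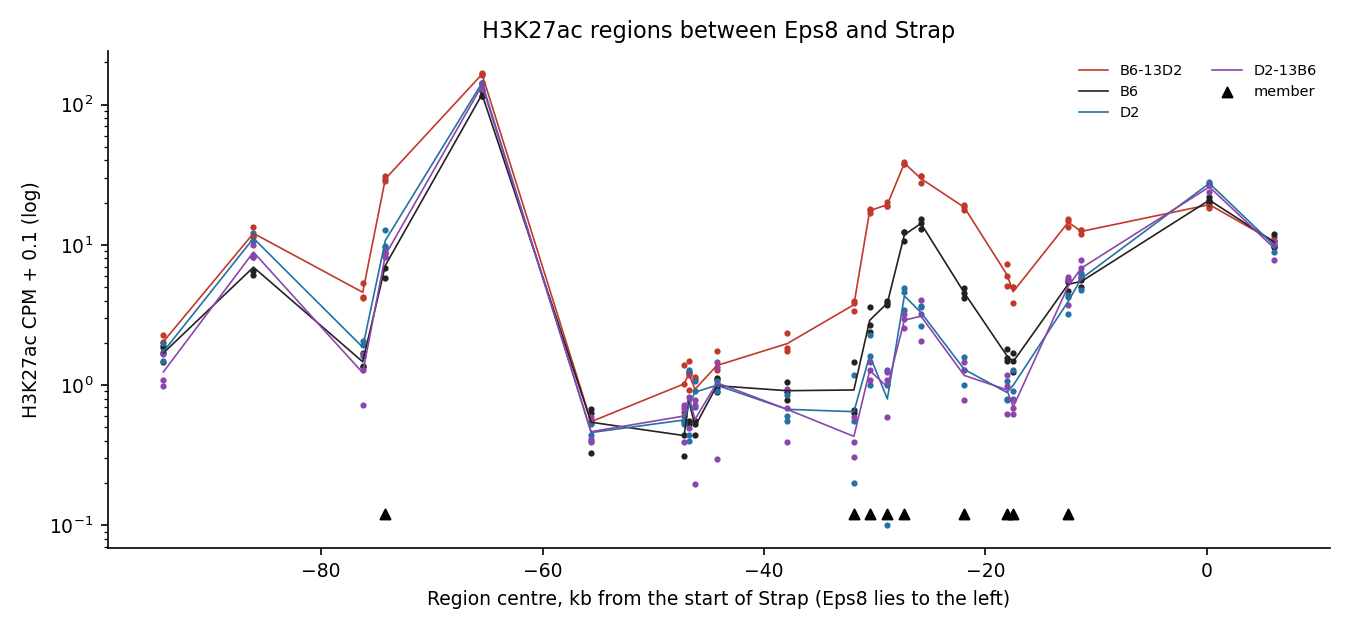
H3K27ac CPM plus 0.1 (log) of each region between Eps8 and Strap against the distance of its centre from the start of Strap in kb. Points are libraries, lines join the means of each cell line, and triangles mark members. The red B6-13D2 points stand above all others between 32 and 12 kb before Strap and meet them at the Strap start.

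Away from this run, 7 pairs of members lay within 50 kb of each other and 45 members stood alone. Chromosome 6 held 14 members, 20.6% of them against 6.06% of all regions, 9 of them in the run between Eps8 and Strap. Its median over all regions for B6-13D2 minus B6 was -0.20 (log2), within the -0.27 to -0.17 of the chromosomes counted. Chromosome 14 held 7 members (10.3% of them, against 4.54% of all regions) and chromosome 5 held 6 (8.82%, against 7.01%). Chromosomes 9, 15 and 18 held 0, with 5.65%, 4.27% and 3.58% of all regions.

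H3K27ac was also higher in B6-13D2 beside the members. The 38 regions within 2 kb of a member that are no members themselves had a median B6-13D2 minus B6 difference of 0.91 (log2), against -0.22 over all regions. The median was 0.57 over 51 regions at 2 to 5 kb, 0.33 over 85 at 5 to 10 kb, 0.13 over 145 at 10 to 20 kb and 0.01 over 411 at 20 to 50 kb. Without the surroundings of the Eps8 and Strap run, the medians within 2 kb and at 2 to 5 kb were 0.87 (35 regions) and 0.58 (50 regions). The medians fell with distance. Neighbouring regions can share reads of the same enriched stretch, so they are no independent measure.

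**Figure D3:**
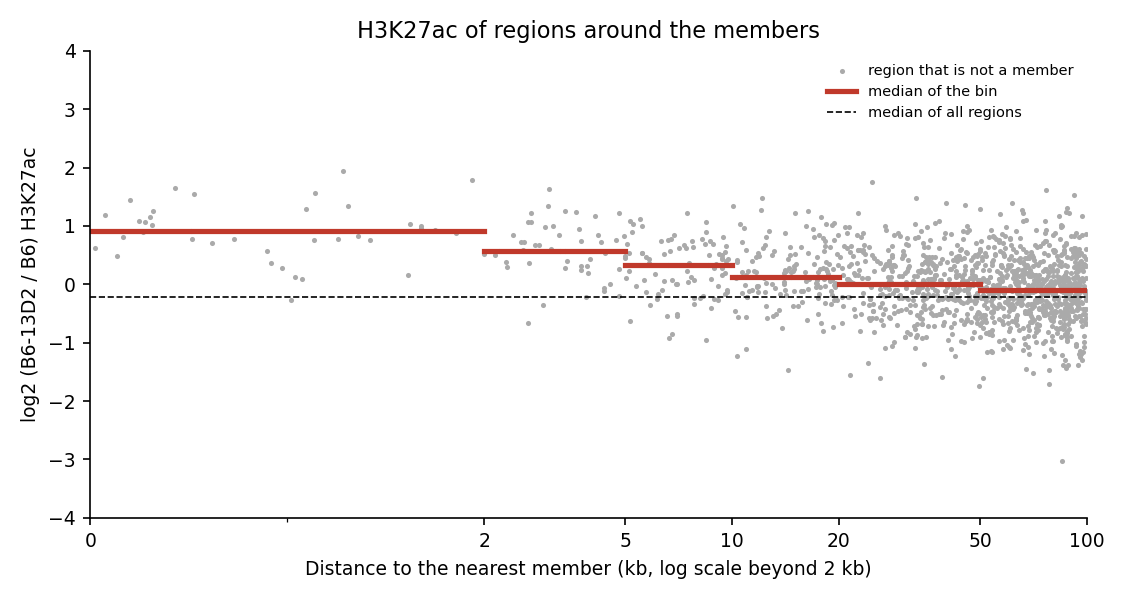
log2 of B6-13D2 over B6 mean H3K27ac CPM (0.1 added to both) of single regions that are no members (grey points) against their distance to the nearest member in kb (log beyond 2 kb), with the median of each distance bin in red and that of all regions as a dashed line. The bin medians fall from 0.91 within 2 kb to -0.09 at 50 to 100 kb.

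By gene context in GENCODE M21, 0 of 68 members reached within 500 bp of a protein-coding start, against 7.54% of all regions and 15.2% of regions with at least 1.5 CPM in B6-13D2. The count stayed at 0 with a window double that width, against 8.56% of all regions. Each region was classed by any overlap, in the order promoter, coding exon, UTR, other exon, intron and between genes, so a class need not hold the centre of a region. Between genes were 40 members (58.8%, against 39.7% of all regions) and in introns 22 (32.4%, against 40.5%). A coding exon was overlapped by 4 members, a UTR by 1 and another exon by 1. The median distance to the nearest protein-coding start was 32.6 kb, against 36.7 kb over all regions and 24.1 kb over those with at least 1.5 CPM.

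Members were in or within 10 kb of 39 protein-coding genes of 19966. Of 13 gene lists, for naive pluripotency, formative and primed pluripotency, endoderm, trophectoderm, mesoderm, neuroectoderm, the 2-cell-like state, the germline, WNT targets, MAPK targets, imprinting, fibroblasts and embryonic stem cells, 0 genes had a member in or within 10 kb. The genes of these lists lie near 49 to 255 regions per list. Repeat content was measured as soft-masked bases of the reference. The masked share of the central 300 bp had a median of 15.2% at members and 12% over all regions, and it was over 50% at 20 members (29.4%) and 18.7% of all regions.

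**Figure D4:**
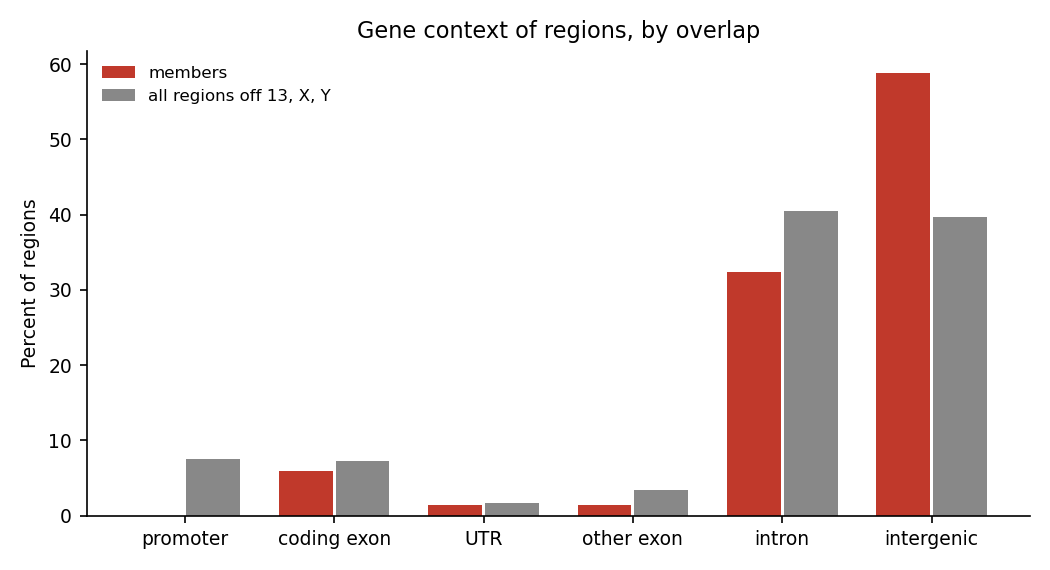
Percent of the 68 members (red) and of all 229016 regions off chromosomes 13, X and Y (grey) in each gene context by any overlap, taken in the order shown, with promoter meaning within 500 bp of a protein-coding start. Members reach 58.8% between genes and 0% at promoters.

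The member with the highest CPM, not scaled to width, was chr14:65628456-65631338 in Nuggc, a GTPase gene known from germinal centre B cells. Its B6-13D2 libraries held 60.0, 57.8 and 59.9 CPM, its B6 libraries 21.7, 22.9 and 22.9, its D2 libraries 6.69, 7.67 and 7.55, and its D2-13B6 libraries 2.65, 4.88 and 3.82. The 4 lines did not overlap. Next came chr8:36146294-36149660, which overlaps a coding exon at the end of Prag1, a pseudokinase gene, while its centre lies past the gene's end at 36147787, with 46.1, 43.4 and 45.5 CPM in B6-13D2 and 17.6, 18.6 and 17.3 in B6.

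The Snd1 intron (chr6:28929250-28931124) followed. Snd1 encodes a nuclease-domain protein that binds RNA. B6-13D2 held 40.1, 40.0 and 43.4 CPM there, B6 15.8, 15.0 and 15.5, D2 3.40, 3.66 and 4.10, and D2-13B6 4.31, 2.18 and 2.64. B6 was again in the middle, and D2 and D2-13B6 overlapped.

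The 8 members with the highest CPM include 2 of the run. The last 3 of them were introns of Nrcam, a neural cell adhesion gene (chr12:44492566-44493731), and Bcar3, an adaptor protein gene (chr3:122389263-122390712), and a region 4.59 kb from Gm7579 (chr7:142206672-142207873). Their B6-13D2 means were 24.5, 19.7 and 21.0 CPM and their B6 means 9.24, 7.29 and 8.21. D2 and D2-13B6 means were 6.59 and 6.03 CPM at Nrcam, 2.53 and 2.84 at Bcar3, and 7.80 and 6.98 at Gm7579. Unlike at Snd1, B6 and D2 were nearly level at Gm7579.

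Outside the run, the 4 members with the largest ratios were near or in Celf2, Bmp10, Capn11 and Bcl11b. An intron of Celf2, which encodes an RNA-binding splicing regulator (chr2:7403654-7404168, ratio 5.40), held 3.56, 3.82 and 4.42 CPM in B6-13D2 and 0.228 to 0.882 in the other 9 libraries. A region 19.6 kb from Bmp10, a ligand gene of the heart (chr6:87409161-87409690, ratio 5.11), held 3.38, 3.18 and 4.16 CPM and 0.216 to 0.916 in the others. A member overlapping a coding exon of Capn11, a calpain gene expressed in testis (chr17:45643773-45644761, ratio 4.73), held 11.2, 11.8 and 12.6 CPM and 1.17 to 3.21 in the others.

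A region 80.7 kb from Bcl11b, a zinc finger gene of T cell development (chr12:108084193-108084444, ratio 4.204), held 2.56, 2.00 and 3.03 CPM in B6-13D2 and 0.226 to 0.647 in the others. At these 4 members B6 was no higher than the lines of D2 background by more than their spread.

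H3K9me3 was measured in other libraries than those of the rule, at the same regions. Of the 68 members, 40 had enough counts to be tested. H3K9me3 was lower in B6-13D2 than in B6 at 6 of these 40 and higher at 0 (edgeR quasi-likelihood test, adjusted p under 0.05 over all regions), where 1.24% of all tested regions were called, 0.388% lower and 0.851% higher. Over all chromosomes, 1463 regions were called, 889 without B6-13D2 replicate 1 and 809 without replicate 2. At an unadjusted p under 0.05 there were 15 of 40 members, against 8.62% of all tested regions. The median log2 difference was -0.48 over the 40 members and -0.03 over all tested regions, and 26 of 40 members were below 0, against 52.7% of all. Over all 68 members, both B6-13D2 libraries were below all 3 B6 libraries at 23 (33.8%, against 14.3% of all regions) and above them at 3 (against 9.65%). Summed over the 68 members, H3K9me3 was 336 and 306 CPM in B6-13D2, 467, 465 and 451 in B6, 255 and 269 in D2, and 271, 281 and 294 in D2-13B6.

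The largest difference was at the member that overlaps a coding exon of Cdk5rap1, a gene for an enzyme that modifies mitochondrial transfer RNA (chr2:154353748-154354365). Its H3K9me3 was 1.89 and 1.42 CPM in B6-13D2 and 15.4, 8.93 and 10.2 in B6. B6-13D2 was at the level of D2, at 1.91 and 2.62, and D2-13B6, at 1.30, 3.41 and 4.12. The log2 difference from B6 was -2.77 ± 0.47 (SE, edgeR adjusted p = 4.38e-06). Its H3K27ac was 13.8, 13.4 and 14.6 CPM in B6-13D2, 4.75, 5.31 and 5.25 in B6 and 1.03 to 2.55 in the other 6 libraries, so the lines lowest in H3K9me3 were at both ends in H3K27ac.

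At the intron of Gpsm1, a regulator of G-protein signalling (chr2:26338363-26339238), H3K9me3 was 3.31 and 2.36 CPM in B6-13D2, 16.9, 13.7 and 11.7 in B6, 3.18 and 4.71 in D2 and 6.50, 3.41 and 5.03 in D2-13B6. The log2 difference from B6 was -2.30 ± 0.39 (SE, edgeR adjusted p = 5.62e-06). Here too B6 stood alone above the 3 other lines, without overlap.

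A pair of members lay 12.1 and 13.2 kb from Alyref2, a gene for an RNA export factor. The wider one, chr1:171490667-171492085, had 8.99 and 7.08 CPM of H3K9me3 in B6-13D2, 25.3, 20.5 and 29.1 in B6, 5.72 and 8.38 in D2 and 8.45, 9.26 and 6.86 in D2-13B6, a log2 difference from B6 of -1.64 ± 0.29 (SE, edgeR adjusted p = 7.98e-06). The narrower one, chr1:171490013-171490558, held 0.946 and 4.72 CPM in B6-13D2, 8.45, 11.6 and 14.8 in B6, 0 and 1.05 in D2 and 1.30, 2.92 and 0.457 in D2-13B6. It differed from B6 by -2.02 ± 0.43 (edgeR adjusted p = 0.00077). It was chosen for naming after its values were seen, and it was lost without B6-13D2 replicate 1 (-1.28, adjusted p = 0.394) and without B6 replicate 3 (-1.81, adjusted p = 0.105). The central 300 bp were 100% soft-masked at the wider one, at the Snd1 intron and at the region near Bcl11b, 97% at the Ube2e1 region (chr14:18546235-18547176), and 0 to 7.33% at the narrower one, Cdk5rap1, Celf2 and Gpsm1.

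At the Snd1 intron shown above, B6-13D2 held 9.46 and 2.36 CPM of H3K9me3 and B6 16.4, 18.4 and 17.9, a log2 difference of -1.57 ± 0.33 (SE, edgeR adjusted p = 0.000579). The 2 B6-13D2 libraries differed from each other here, and without replicate 2 the difference was -0.90 with an adjusted p of 0.65. With DESeq2 the difference was -1.57 and its adjusted p 0.0625. At the Celf2 intron the values were 3.78 and 2.83 against 13.9, 9.45 and 8.16 CPM, with 2.54 and 2.10 in D2, with a difference of -1.66 ± 0.41 (SE, edgeR adjusted p = 0.00711), which was lost without B6-13D2 replicate 1 (0.0921), B6-13D2 replicate 2 (0.307) or B6 replicate 1 (0.256) and with DESeq2 (0.403), at differences of -1.87, -1.48, -1.40 and -1.68. DESeq2 called 3 of the 40 members, and the narrower Alyref2 member was not among them. Over all chromosomes DESeq2 called 634 of 86874 regions, against 1463 with edgeR.

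**Figure D5:**
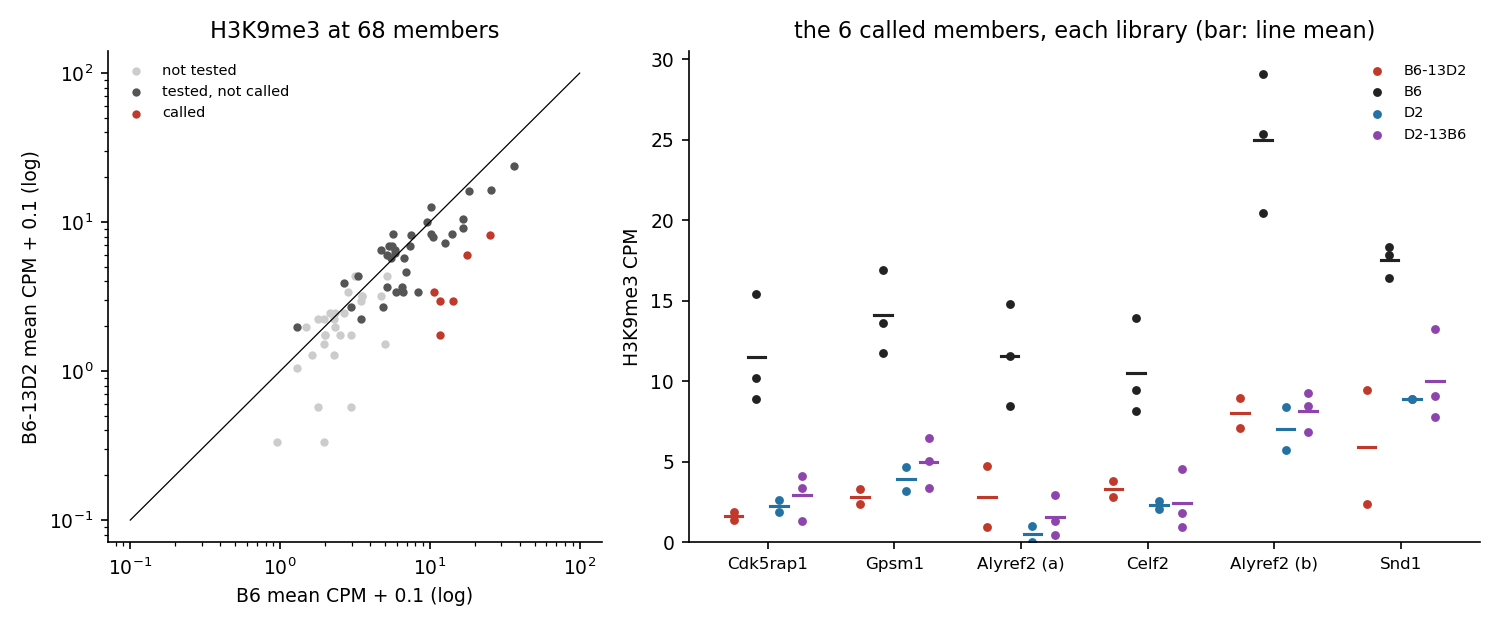
Left, mean H3K9me3 CPM plus 0.1 (log) of B6-13D2 against B6 at the 68 members, coloured by the edgeR call for B6-13D2 minus B6, with the line of equal values. Right, H3K9me3 CPM of each library (points) and line means (bars) at the 6 called members, named by gene or nearest gene, with Alyref2 (a) the narrower and (b) the wider of its pair. Every B6 point lies above every B6-13D2 point of the same member.

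Against the mean of the 3 other lines, H3K9me3 of B6-13D2 was called at 6 of 40 members, 4 higher and 2 lower, where 9.1% of all tested regions were called, 6.47% higher and 2.62% lower. Over all chromosomes, 8199 regions were called in this contrast, 4213 without B6-13D2 replicate 1 and 3264 without replicate 2. The highest differences were at the Ube2e1 region shown above (chr14:18546235-18547176), with 15.1 and 17.0 CPM in B6-13D2, 17.9, 18.4 and 17.9 in B6, 3.81 and 1.57 in D2 and 1.95, 3.90 and 1.37 in D2-13B6, at 1.69 ± 0.29 (SE, edgeR adjusted p = 1.83e-06), and at the region near Bcl11b, with 12.3 and 12.7 CPM in B6-13D2, 11.4, 8.93 and 9.69 in B6 and 1.91 to 5.85 in the other lines, at 1.42 ± 0.30 (edgeR adjusted p = 0.000229). At both, B6-13D2 was near B6 and above the lines of D2 background. The Snd1 intron was lower, at -0.99 ± 0.32 (edgeR adjusted p = 0.0291), but the call was lost without B6-13D2 replicate 2 (-0.28, adjusted p = 0.849), with no filter on low counts (0.141), with DESeq2 (0.194), with the replicate block (0.0521), and without D2 replicate 1 (0.0609), D2 replicate 2 (0.0761) or D2-13B6 replicate 3 (0.053). Without B6-13D2 replicate 1 or without replicate 2, 3 members were called in this contrast. The Snd1 intron was the 1 member called in both contrasts.

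The members thus included both kinds of site. At Cdk5rap1, Gpsm1 and the wider Alyref2 member, and at Celf2, whose call against B6 was lost in the settings given above, B6-13D2 had H3K9me3 near the level of D2, and at Ube2e1 and Bcl11b near that of B6, while the rule sets their H3K27ac above that of every other line. In the run between Eps8 and Strap, 4 of 9 members were tested and 0 were called by edgeR, with a log2 difference from B6 of -0.78 ± 0.31 (SE, edgeR unadjusted p = 0.0137, adjusted p = 0.321) at chr6:137707131-137708374 and of -0.53, 0.32 and 0.20 at the other 3. Summed over the 9 regions of the stretch, H3K9me3 was 39.3 and 34.9 CPM in B6-13D2, 55.7, 54.1 and 54.6 in B6, 46.4 and 34.6 in D2, and 50.7, 29.2 and 34.8 in D2-13B6.

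The separate lines hold no B6-13D2 cells and show how the parental strains differ at the members. H3K9me3 was tested at 38 members and called at 14, all lower in D2 than in B6 (edgeR), where 34.3% of all tested regions were called, 17.5% lower and 16.8% higher. The median log2 difference, D2 minus B6, was -0.46 over the members and 0.00 over all tested regions. All 6 members that were lower in B6-13D2 than in B6 were among the 14, which makes them 6 of 6 and 6 of 14. Of all regions called lower in B6-13D2 than in B6 and tested in the separate lines, 195 of 249 (78.3%) were called lower in D2. The 2 series share the B6 line and the D2 line but no library.

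At Cdk5rap1 the 3 separate B6 lines held 22.2, 19.5 and 11.9 CPM of H3K9me3 and the D2 lines 4.47, 2.34 and 3.53 (log2 difference -2.45 ± 0.33, SE, edgeR adjusted p = 9.36e-08). At the Ube2e1 region the B6 lines held 34.3, 28.3 and 30.2 CPM and the D2 lines 7.94, 5.08 and 6.06 (-2.37 ± 0.25, edgeR adjusted p = 2.95e-10). The strains did not overlap at either. At Bmp10 and Capn11 D2 was lower by -1.73 ± 0.30 and -0.99 ± 0.21 (edgeR adjusted p = 9.63e-06 and 0.000282), and B6-13D2 minus B6 was -0.88 and -0.66 there without passing the test.

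H3K27ac of the separate lines was counted over its own list of wider regions, of which 47 overlapped 50 members by at least 1 bp, and 30 members lay wholly inside one. A call at such a region is shared by all members in it. Of the 50 members, 32 were in a region called between D2 and B6 (edgeR), 11 higher in D2 and 21 lower, where 49.4% of all tested regions were called, 24.3% higher and 25.1% lower. Of the 43 members overlapped by at least 50% of their length, 7 were in a region higher in D2 and 20 in a region lower in D2. The Celf2, Capn11 and Gpsm1 members, whose regions cover 7.38%, 7.58% and 6.16% of them, are among the 11 and not among the 7. Counted once, 30 of the 47 regions were called, 11 higher and 19 lower. The highest of the 3 B6 lines was a median of 1.24 times the lowest at these 47 regions and at all regions, and it was 2 times or more at 3 of the 47 (6.38%, against 4.44% of all).

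The region of the stretch near Strap that holds 2 members (chr6:137705791-137706640 and chr6:137707131-137708374) had 7.76, 8.74 and 6.33 CPM in the B6 lines and 4.02, 5.53 and 4.47 in the D2 lines, lower in D2 by -0.68 ± 0.14 (log2, SE, edgeR adjusted p = 9.75e-05). The region of the member at the Eps8 end was higher in D2, with 23.0, 25.9 and 25.2 CPM against 16.8, 17.2 and 15.1 (0.61 ± 0.09, edgeR adjusted p = 7.37e-08). At both, the order of the strains was that of the B6 and D2 means in the repeats. At chr6:137722009-137723094, nearest to Strap, the D2 lines were higher, with 9.19, 9.36 and 8.09 CPM against 4.91, 6.41 and 4.35 (0.78 ± 0.14, edgeR adjusted p = 3.04e-06), whereas in the repeats, with the other antibody, the D2 mean of 3.85 CPM was below the B6 mean of 5.13. At chr6:137704216-137705031, the member with the largest ratio, D2 minus B6 was -0.15 ± 0.19 and did not pass the test (edgeR adjusted p = 0.514).

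The largest increase in D2 was at the Alyref2 pair, where the region under the wider member held 0.112, 0.194 and 0.192 CPM in the B6 lines and 2.11, 1.97 and 2.35 in the D2 lines (3.67 ± 0.43, edgeR adjusted p = 2.19e-10). In the repeats, with the other antibody, B6 held 2.15, 1.59 and 0.685 CPM and D2 1.80, 2.06 and 1.51 at the member itself, which overlap, and the lines' region covers 40.9% of that member. The largest decrease in D2 was at a member 1801 kb from G6pd2 (chr5:60006877-60008185), with 11.2, 9.19 and 9.08 CPM in the B6 lines and 2.36, 2.57 and 2.35 in the D2 lines (-2.00 ± 0.15, edgeR adjusted p = 1.52e-16). The G6pd2 member was picked for naming after their values were seen. At the Snd1 intron the B6 lines held 17.0, 7.06 and 9.59 CPM, so that 1 line of B6 was well above the other 2, and the D2 lines 5.87, 6.08 and 7.74. Its difference of -0.78 (edgeR adjusted p = 0.000115) was lost without B6 replicate 1 (-0.30, adjusted p = 0.108) and with DESeq2 (adjusted p = 0.14).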

How the data were processed

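Per the submitters' processing notes, the tools used were Trimmomatic 0.39, HISAT2 2.2.1, MACS 1.4.2, bedtools and edgeR with the build mm10; their order and settings are not given in the sources used here. The 4 deposited tables hold counts, not normalized, for each region and library; duplicate reads had been removed in all 4, per the file headers. Columns were matched to samples by library name, and 2 columns that matched none were not used. The members, gene lists and named regions were chosen with earlier results of these data known. Named were the 8 members with the largest ratio, the 8 with the highest CPM, runs of 3 or more within 50 kb, the 6 with the smallest p among those called in H3K9me3, and those next to the limits. Members at promoters or near listed genes would have been named but there were 0.

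H3K27ac counts of the repeats were scaled to CPM and not tested. The other tables were fitted whole with edgeR 4.0.16 in R 4.3.3 (quasi-likelihood F-test, TMM scaling, filterByExpr defaults, two-sided, Benjamini-Hochberg adjustment over all regions, called under 0.05), with all 4 lines in 1 fit for the repeats. Standard errors follow from the F statistics. P-values of the repeats measure only the spread between technical libraries. The fits were tested on simulated counts before use. Gene context came from GENCODE M21 and bases from GRCm38.p6, whose chromosome lengths hold all region ends. Starts were read as counted from 0 and printed plus 1. Figures used matplotlib 3.10.9.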

Additional observations from a re-analysis of the deposited data

How the results depend on the processing

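The number of regions that met the rule was 117 with TMM factors (65 of the 68 members among them), 381 at a fold of 2, 7 at a fold of 4 and 32 with 0.5 in place of 0.1. With TMM factors, run for the other lines after seeing the data, B6 had 243 in place of 461. It was 61 at a minimum of 3 CPM and 67 with the pairs within sampling noise summed (56 of the members among them). With the lowest B6-13D2 library set against the highest other library it was 23, all of them members. Leaving out 1 of the 12 libraries gave 67 to 100, the highest without B6 replicate 2.

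When regions needed a mean of at least 20 counts, 2 of 5 tested members were called in H3K9me3 B6-13D2 minus B6. Over all chromosomes, 831 of 11849 regions were called there. With DESeq2 the members called were 3 of 40, with 634 of 86874 regions. When 1 B6 or D2-13B6 library was left out they were 5 or 6, with 1093 to 1844 regions. Fewer were called without a B6-13D2 library, which leaves 1 in that line. All of these members were lower. Against the mean of the other lines, 3 of 5 were called at a mean of at least 20 counts, all lower, with 3092 of 11849 regions. With DESeq2 it was 2 of 40, all higher, with 2706 of 86874 regions. Without 1 B6 or D2-13B6 library it was 5 to 7, with 7147 to 10579 regions, and again fewer without a B6-13D2 library. In the separate lines, 5 of 12 members were called for H3K9me3 at a mean of at least 20 counts, with 6658 of 16145 regions. Without 1 line it was 13 to 16, with 13495 to 15364 regions. Without D2 replicate 3, 2 of the 16 called were higher in D2, and with library totals alone 1 of 15 was. For H3K27ac the members called were 27 to 33 of 50 without 1 line, with 40671 to 46597 regions. With DESeq2 they were 26 of 50, with 35858 of 96291 regions. With an overlap of at least 50% of the member they were 27 of 43, 7 higher and 20 lower. The stricter filter tests fewer regions. The cause of the other changes was not tested.

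Replicate numbers did not pair the samples: same-numbered libraries of different lines had correlations of -0.063 to 0.173 in their deviations. With the replicate block, 6 and 7 of 40 members were called in the H3K9me3 contrasts of the repeats, with 1356 and 7304 of 86874 regions. In the separate lines it was 14 of 38 for H3K9me3 (14500 of 44797 regions) and 32 of 50 for H3K27ac (47709 of 96291). With the block the Snd1 intron was lost against the mean of the other lines (adjusted p = 0.0521). No called member changed direction in the settings run. H3K9me3 had 1538145 to 2185977 counts per library of the repeats, and 28 members were under the filter on low counts.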
